A study of Mus musculus with 6 samples.

Results

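The translation initiation and elongation factors described here are the 66 rows of the deposited gene table, of 19436 genes in all, whose symbol is Eif or Eef followed by a digit. The sex-linked genes Eif2s3x and Eif2s3y and names marked as pseudogenes (-ps) were left out, which removed 5 of 71 rows. The 66 rows carry 64 distinct symbols, because Eif2c2 and Eif4e3 each have a pair of Ensembl entries. Symbols alone chose the rows, so the set also holds genes that regulate translation factors, such as the eIF2alpha kinases, and the Argonautes under their older Eif2c symbols.

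RNA came from erythroid precursor cells sorted from C57BL/6 mouse fetal liver at E14.5 (embryonic day). The sort kept cells with intermediate CD71, the transferrin receptor, and without Ter119, a late erythroid surface marker. The wild type group (-77+/+) was compared with embryos that lack both copies of the -77 element (-77-/-), an enhancer far upstream of the gene for the hematopoietic transcription factor Gata2, with 3 libraries in each group and no further allele or agent in either. The deletion is in the germ line, so it was present in every cell of the embryo and not in the sorted cells alone. Libraries were amplified from 10 ng of total RNA. The labels call the libraries triplicates without naming embryos or litters, and the spread that the tests rest on is that between these libraries, part of which may be technical.

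Translation starts when eIF2, carrying the initiator tRNA and GTP, joins the small ribosomal subunit together with eIF1, eIF1A, eIF3 and eIF5. The eIF4F complex binds the mRNA cap and unwinds the leader, the ribosome scans to the start codon, and eIF5B brings in the large subunit. eEF1A then delivers each aminoacyl-tRNA and eEF2 moves the ribosome along. In red cell precursors this machinery makes globin in bulk, and the heme-regulated kinase HRI, encoded by Eif2ak1, slows initiation when heme is short by phosphorylating eIF2.

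The 6 libraries held 16516338 to 20468899 reads over the genes. Values are normalized reads, meaning reads divided by a size factor per library, and these factors ran from 0.878 to 1.17. Log2 values correlated across genes at 0.873 to 0.944 within a genotype and at 0.774 to 0.843 between genotypes. Gata2 was at 128, 87.8 and 61.5 normalized reads in wild type and at 74.2, 26.2 and 34.2 in -77-/-, groups that overlap, and it did not pass the test (log2 difference -1.10, limma adjusted p = 0.18). Wild type replicate 2 had 41877 normalized reads of Xist, against 28.5 to 63.2 in the other 5 libraries, and only 46.9 of Eif2s3y against 714 to 1298, so it was the single library with a female pattern. Markers of several cell types differed between the genotypes. Of 14 erythroid markers, 12 were lower in -77-/-, with a summed level of 50421 to 54125 normalized reads in wild type and 3617 to 8832 in -77-/-. Hba-a1 was at 0 in -77-/- replicate 3, where Hba-a2 was at 111. Of 12 tested monocyte and macrophage markers, 11 were higher (1732 to 2925 against 26931 to 37630, with Lyz1 at 0 in all wild type libraries). Granulocyte markers summed to 15155 to 26310 against 45321 to 49355, with 5 lower and 4 higher of 12, and lymphoid markers to 813 to 1017 against 2230 to 4128, with 7 of 10 higher. Of 8 megakaryocyte markers, 3 were lower and 1 higher (647 to 1032 against 350.0 to 759), with Gp9, Gp5 and Ppbp at 0 in a -77-/- library, and of 5 hepatocyte markers 1 was higher (66.9 to 209.7 against 226 to 1272). Of all tested genes, 15.2% were lower and 16.9% higher. The 1 higher call among the hepatocyte markers and the 1 among the megakaryocyte markers are near that share. The part that these differences in marker levels have in the results below was not tested. In bulk RNA fewer cells of a type and less RNA per cell cannot be told apart.

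Most translation factor genes were lower in -77-/- precursors. Of 65 tested, 38 fell, 3 rose and 24 did not pass the test (limma on log2(normalized reads + 1), adjusted p under 0.05 over 15821 genes). That is 58.5% lower against 15.2% of all tested genes, and 4.62% higher against 16.9%. On recovered reads, edgeR called 35 lower and 2 higher (14.4% and 14.6% of all genes), DESeq2 38 and 4 (15.8% and 17.3%) and limma-voom 39 and 4 (15.8% and 16.6%). The difference was below 0 for 54 of 65 members, or 83.1% against 46.1% of all genes. The median log2 difference was -0.37 for the translation factor genes and 0.10 for all tested genes. For 42 members every -77-/- library was below every wild type library, or 64.6% against 21.4% of all genes, and for 7 every -77-/- library was above, or 10.8% against 25.0%. The falls were mostly moderate: 4 members fell by at least 1 on the log2 scale, or 6.15%, which is near the 6.11% of all genes, and 2 rose that much, or 3.08% against 12.6%. By the authors' deposited table, at the same threshold, 39 members were lower and 4 higher (against 14.7% and 16.4% of its genes), and it called all 41 members called here in the same direction.

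Abundant genes were lower more often in general, and many members are abundant. Among genes with a mean of at least 1000 normalized reads, 32 of 47 members were lower (68.1%) and 1 higher, while 34.2% of the 3520 genes of that abundance were lower and 20.1% higher. Their median log2 differences were -0.44 and -0.17. When every library was centred on its median gene in place of the deposited scaling, the median of all tested genes moved by -0.20 on the log2 scale. The members then split into 47 lower and 2 higher (22.1% and 13.8% of all genes), and all genes into 3495 lower and 2176 higher, 38.4% of calls higher, in place of 2410 and 2681, 52.7% higher. Eif2c3 and Eif4g3, neither of which passed, changed sign between these scalings.

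**Figure D1:**
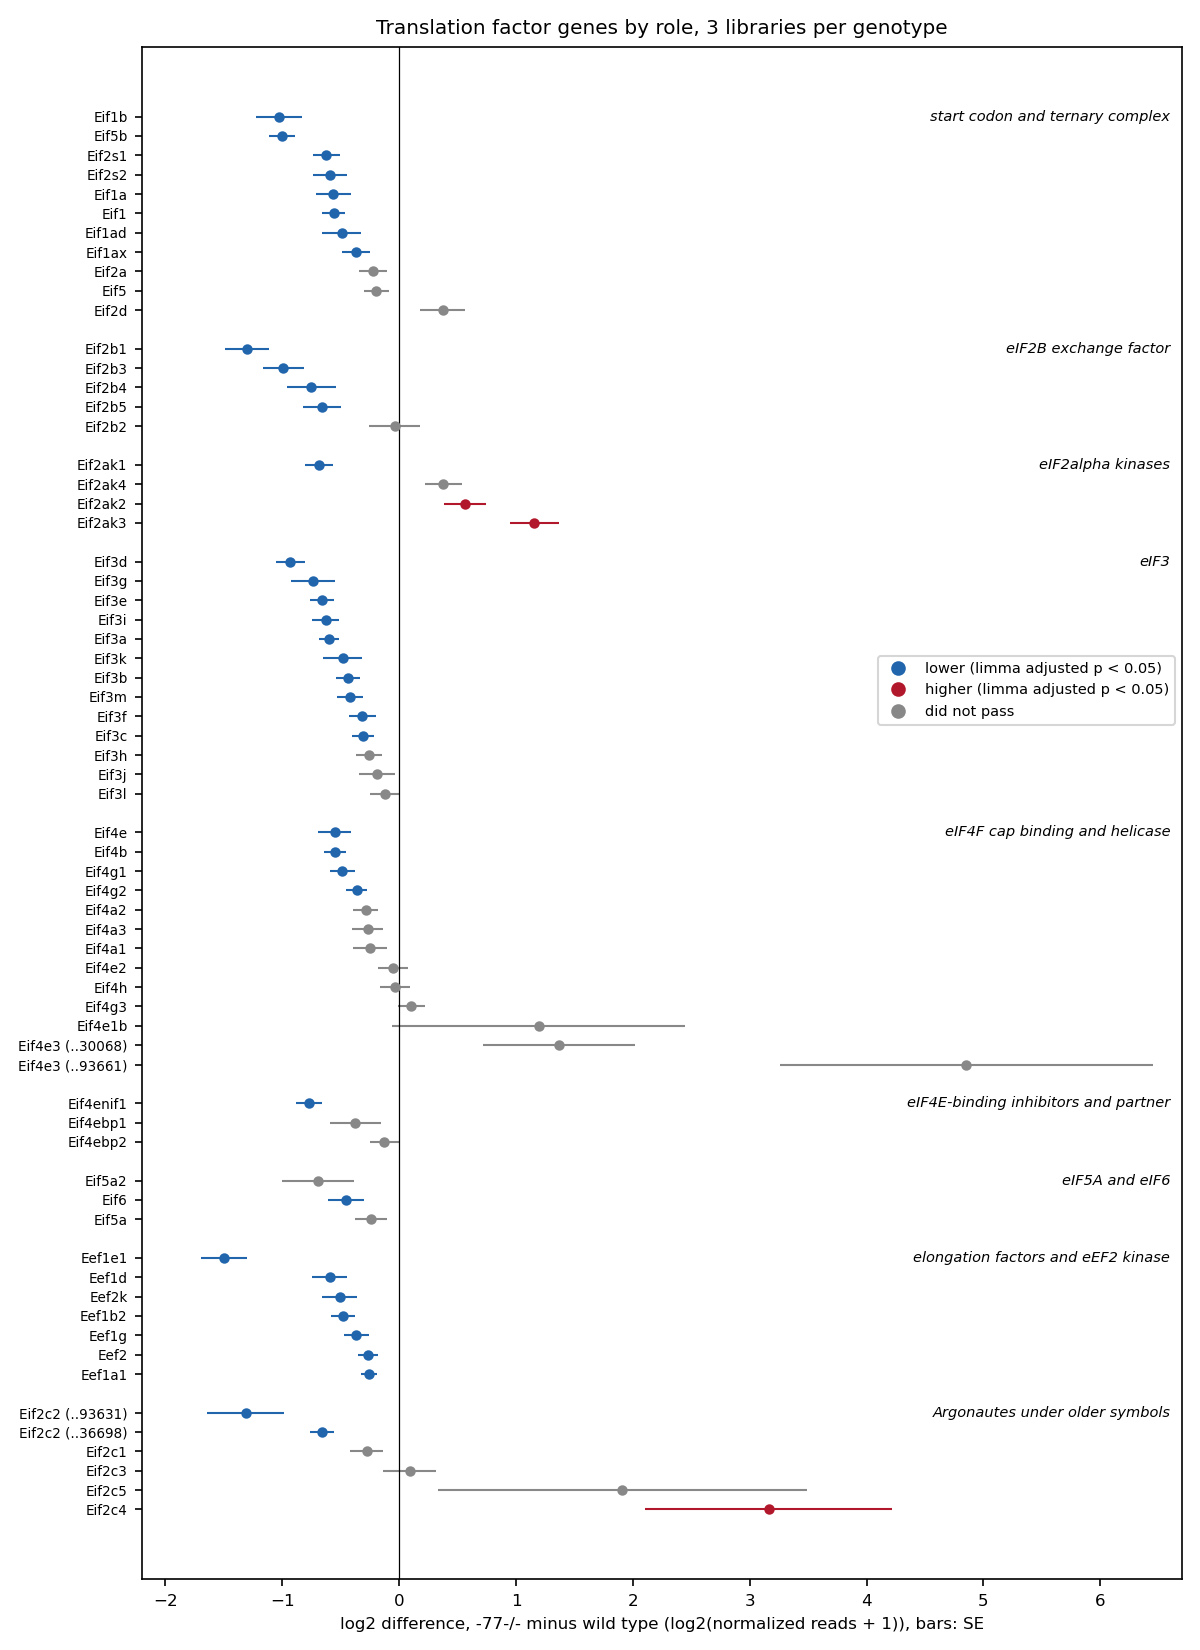
Log2 difference of log2(normalized reads + 1), -77-/- minus wild type, for the 65 tested translation factor genes, grouped by role; points are estimates from 3 libraries per genotype, bars are standard errors and colour gives the limma call. 38 genes lie below 0 as lower calls and 3 above 0 as higher calls; the widest bars belong to the poorly expressed Eif4e3 (ENSMUSG00000093661), Eif2c5, Eif4e1b and Eif2c4.

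The fall was seen in each -77-/- library. Against the wild type mean, the median member lay at -0.28, -0.54 and -0.31 on the log2 scale in -77-/- replicates 1, 2 and 3, and at -0.02, 0.03 and 0.04 in the wild type replicates. The median of all tested genes lay at 0.06, 0.16 and 0.11 in the same -77-/- libraries. Replicate 2 was the lowest of the -77-/- libraries for 47 of 65 members and the lowest of all 6 for 44, and replicate 1 the highest of the -77-/- libraries for 36. The count of lower members was 28 without -77-/- replicate 2 and 28 without wild type replicate 2, in place of 38. Lower calls over all tested genes dropped too, to 1912 of 15650 and 1958 of 15797, in place of 2410 of 15821.

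**Figure D2:**
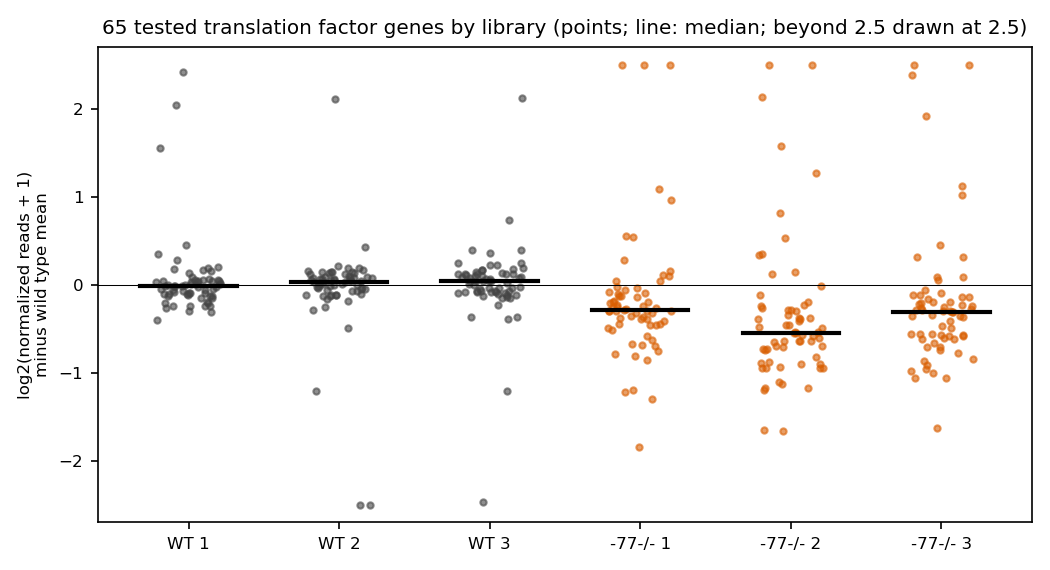
The 65 tested translation factor genes in each library, as log2(normalized reads + 1) minus the wild type mean of the gene; each point is a gene, lines are medians, and points beyond 2.5 are drawn at 2.5. The medians of the -77-/- libraries sit at -0.28, -0.54 and -0.31, all below the wild type libraries, and replicate 2 sits lowest.

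Summed over the 66 genes, translation factor mRNA made up 2.93%, 3.15% and 3.09% of the normalized reads in wild type and 2.60%, 2.41% and 2.59% in -77-/-. The groups did not overlap, with means of 3.05% ± 0.113 and 2.53% ± 0.104 (SD, n = 3), a relative change of -17.0%, and an exact two-sided permutation test gave p = 0.1, the smallest that 3 against 3 libraries allow. Eef1a1 alone took 0.819% of wild type reads and 0.726% of -77-/- reads, and the other 65 rows together changed by -19.1%. By role, the share changed by -38.1% for eIF2B, -26.9% for the Argonautes, -26.8% for the eIF4E-binding group, -25.5% for the start codon group, -24.7% for eIF3, -15.3% for eIF4F and -13.4% for the elongation group, each with non-overlapping groups (exact permutation p = 0.1, Benjamini-Hochberg adjusted 0.13 over 9 roles). eIF5A with eIF6 changed by -12.2% (exact permutation p = 0.3) and the eIF2alpha kinases by 13.2% (p = 0.2), both with overlapping groups.

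Factors of start codon recognition and of the ternary complex mostly fell, with a median log2 difference of -0.56. Of 11 genes 8 were lower, none was higher and 3 did not pass. The lower share was 72.7%, against 15.2% of all tested genes and 34.2% of those with a mean of at least 1000 normalized reads. Eif5b encodes the GTPase that joins the large subunit. It was at 9856, 8531 and 8325 normalized reads in wild type and at 5048, 4065 and 4272 in -77-/-. These groups lie far apart, with a log2 difference of -0.999 (SE 0.11, limma adjusted p = 6.1e-06). Eif1b, a close paralog of the scanning factor eIF1, was at 768, 730.4 and 897 against 322, 413 and 441. Every -77-/- library was below every wild type library (log2 -1.03, SE 0.20, limma adjusted p = 9.1e-04), although Eif1b has few reads beside Eif1, which had 8764 reads per kilobase of exon in wild type against 772. Eif1 itself fell by 0.56 on the log2 scale. The eIF2 subunit genes Eif2s1 (alpha, the subunit that the stress kinases phosphorylate) and Eif2s2 (beta) fell by 0.62 and 0.59. Eif1a and its X-linked copy Eif1ax, which encode eIF1A, fell by 0.56 and 0.37, and Eif1ad, which encodes an eIF1A domain protein, fell by 0.49. The calls of Eif1ax and Eif1ad were the least firm: Eif1ax did not pass when wild type replicate 2 (limma adjusted p = 0.12), -77-/- replicate 1 (0.055) or -77-/- replicate 2 (0.10) was left out. Eif1ad ended without wild type replicates 2 (limma adjusted p = 0.071) or 3 (0.12), without -77-/- replicate 2 (0.16), with edgeR (0.059) and without the robust step (0.051). The remaining 3 did not pass: Eif5, the GTPase activator of eIF2, at -0.19, and Eif2a and Eif2d, which take part in initiation outside the canonical eIF2 route, at -0.23 and 0.37.

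eIF2B, the exchange factor that reloads eIF2 with GTP and that phosphorylated eIF2 blocks, had the lowest median of the 9 role groups at -0.75. Of its 5 subunit genes 4 were lower, or 80% against 15.2% of all tested genes. Eif2b1 (alpha) was at 1105, 1399 and 1146 normalized reads in wild type and at 529, 384 and 579.7 in -77-/-. The groups stood apart by a log2 difference of -1.30 (SE 0.19, limma adjusted p = 8.6e-05). Eif2b3 (gamma) fell by 0.99, Eif2b4 (delta) by 0.75 and Eif2b5 (epsilon, the catalytic subunit) by 0.66. Eif2b4 ran from 763 to 1292 in wild type and from 525 to 754 in -77-/-, and it did not pass with wild type replicate 3 (limma adjusted p = 0.056), -77-/- replicate 2 (0.061) or -77-/- replicate 3 (0.062) left out. Eif2b2 (beta) stood apart from the other subunits, at 552, 780.3 and 450.1 against 597, 573 and 523, groups that overlap (log2 -0.04, limma adjusted p = 0.91).

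The 4 eIF2alpha kinases split by direction. Eif2ak1, which encodes the heme-regulated kinase HRI, was at 2155, 2202 and 2085 normalized reads in wild type and at 1439, 1310.5 and 1258 in -77-/-. All 3 -77-/- libraries were lower, with means of 2148 ± 58.7 and 1336 ± 92.8 (SD, n = 3; log2 -0.69, SE 0.12, limma adjusted p = 5.2e-04). Eif2ak3, which encodes the endoplasmic reticulum kinase PERK, was at 330.2, 269 and 272 against 614, 701 and 628. It more than doubled, from 291 ± 34.3 to 648 ± 46.5 (log2 1.16, SE 0.21, limma adjusted p = 5.1e-04). Eif2ak2, which encodes the double-stranded RNA kinase PKR, was at 1320.0, 1151 and 841 against 1587, 1909 and 1355. Its groups did not overlap, but the lowest -77-/- library was close to the highest wild type one (log2 0.56, SE 0.18, limma adjusted p = 0.026). It did not pass with wild type replicate 3 (limma adjusted p = 0.095), -77-/- replicate 1 (0.071) or -77-/- replicate 2 (0.13) left out, nor with edgeR (0.060) or median centring (0.16). Eif2ak4, which encodes the amino acid sensor GCN2, was at 722, 700.5 and 760.1 against 886, 1049 and 908, without overlap, and did not pass (log2 0.38, limma adjusted p = 0.082).

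Ratios between genes within a library hardly depend on its scaling, except where a value is near 0, because 1 was added to each value. Relative to Eif2ak1, the log2 ratio was higher in -77-/- by 1.84 for Eif2ak3, by 1.25 for Eif2ak2 and by 1.06 for Eif2ak4, each without overlap between the groups. Eif2ak1 itself fell, and the ratio to it was higher without overlap for 51.6% of all tested genes. The log2 ratio of Eif2ak2 to Eif2ak1, not corrected for gene length, was -0.71, -0.93 and -1.31 in wild type and 0.14, 0.54 and 0.11 in -77-/-. Of 13 paralog ratios computed, 9 did not overlap, all of them higher in -77-/-, each with exact permutation p = 0.1, the smallest possible, and 0.14 after Benjamini-Hochberg adjustment over the 13. These 9 ratios share 4 denominators that fell, so they are not independent, and the share of all tested genes with a higher ratio without overlap was 42.1% for Eif4e, 40.7% for Eif4g1 and 49.4% for Eif2c2.

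**Figure D3:**
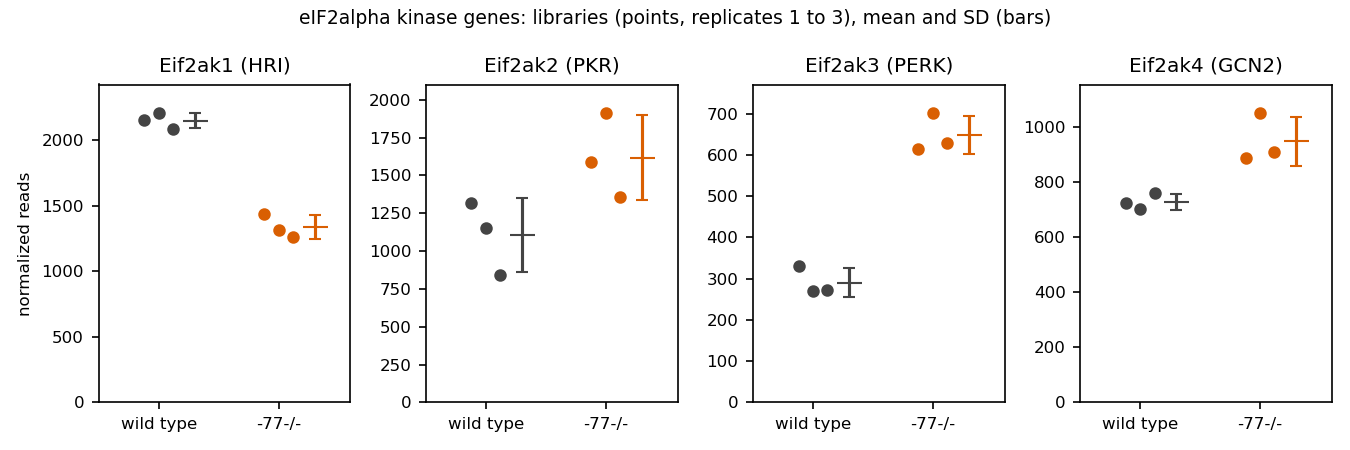
Normalized reads of the 4 eIF2alpha kinase genes in each library (points, replicates 1 to 3 from left to right), with mean and SD (n = 3) beside them and axes starting at 0. Eif2ak1 is lower in all -77-/- libraries, at 1258 to 1439 against 2085 to 2202, and the -77-/- points of the other 3 kinase genes lie above their wild type points, although Eif2ak4 did not pass the test.

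Stretches of the promoters of 3 kinase genes are shown because these genes moved in opposite directions. CCAAT, in either orientation, is in the promoters of both Eif2ak1, which fell, and Eif2ak3, which rose. Relative to the start, the match of Eif2ak1 is at -88. Those of Eif2ak3 are at -237, -221, -178, -140, -85 and -20, and some lie outside the stretch shown. Eif2ak1 also holds CTTCCGG, the reverse complement of an ETS core, 17 bases after the start and outside the stretch shown. Whether these motifs have a part in the directions was not tested. The sequences are from RefSeq on GRCm38.p6, 5′ to 3′ on the strand of the gene; capitals mark CCAAT in either orientation (the box bound by NF-Y) in the first pair and, in the third, a repeat of the interferon response type, in which GAAA occurs again after a pair of arbitrary bases. Eif2ak1 covers the 100 bases before the start, chr5:143817692-143817791, plus strand. Eif2ak3 covers the 100 bases before the start, chr6:70844415-70844514, plus strand. Eif2ak2 covers bases 9 to 38 after the start, chr17:78882535-78882564, minus strand.
Eif2ak1: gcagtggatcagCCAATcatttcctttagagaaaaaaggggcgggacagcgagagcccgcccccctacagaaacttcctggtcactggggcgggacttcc
Eif2ak3: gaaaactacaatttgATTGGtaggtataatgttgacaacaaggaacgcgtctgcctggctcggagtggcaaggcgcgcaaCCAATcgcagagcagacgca
Eif2ak2: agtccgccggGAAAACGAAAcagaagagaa
A match describes the letters only and is not evidence of binding. The GAAA repeat is also in the promoters of Eif2s1 and Eif3a, both of which fell.

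eIF3, the large scaffold that holds the small subunit during initiation, fell across its subunits. Of its 13 subunit genes 10 were lower, none was higher and all 13 had a negative difference, with a median of -0.44 and a range from -0.93 to -0.12. For 11 of the 13 the groups did not overlap. These are 76.9% lower and 84.6% lower without overlap, against 15.2% and 21.4% of all tested genes. Among genes with a mean of at least 1000 normalized reads the shares were 34.2% and 41.3%. The difference was below 0 for 46.1% of all tested genes and for 62.4% of those abundant genes. Eif3d, whose product can bind the cap itself, was at 4089, 4592 and 4523 normalized reads in wild type and at 2603, 1956 and 2410.2 in -77-/-. Its mean changed by -47.2% (log2 -0.93, SE 0.12, limma adjusted p = 3.7e-05). Eif3a, the largest core subunit, was at 31124, 32766 and 29698 against 21850.5, 18716 and 21173. It had the most reads per kilobase of exon of the 13 in wild type, 6087, and fell by 0.60 (limma adjusted p = 8.3e-05). Eif3g, Eif3e and Eif3i fell by 0.74, 0.66 and 0.63, Eif3b by 0.44 and Eif3m by 0.42. Eif3i was nearly level among the -77-/- libraries (1925 to 1948), while Eif3g spread from 1306 to 2444.

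Smaller falls were those of Eif3k (0.48), Eif3f (0.32) and Eif3c (0.31), and their calls were less firm. Eif3f lost its call when wild type replicate 1 (limma adjusted p = 0.054), 2 (0.17) or 3 (0.062) or -77-/- replicate 2 (0.15) or 3 (0.11) was left out, with edgeR (0.051) and with no filter on low values (0.056). Eif3k lost its call without wild type replicates 1 (limma adjusted p = 0.14) or 2 (0.062), without -77-/- replicates 2 (0.13) or 3 (0.16), with edgeR (0.065) and with DESeq2 (0.052). Eif3c did not pass with wild type replicate 2 (limma adjusted p = 0.060) or -77-/- replicate 2 (0.0505) left out. Eif3m did not pass with wild type replicate 2 left out (limma adjusted p = 0.062). Eif3h, Eif3j and Eif3l did not pass, at -0.26, -0.19 and -0.12; Eif3j, a loosely attached subunit, had the fewest reads per kilobase of the 13, 208.

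**Figure D4:**
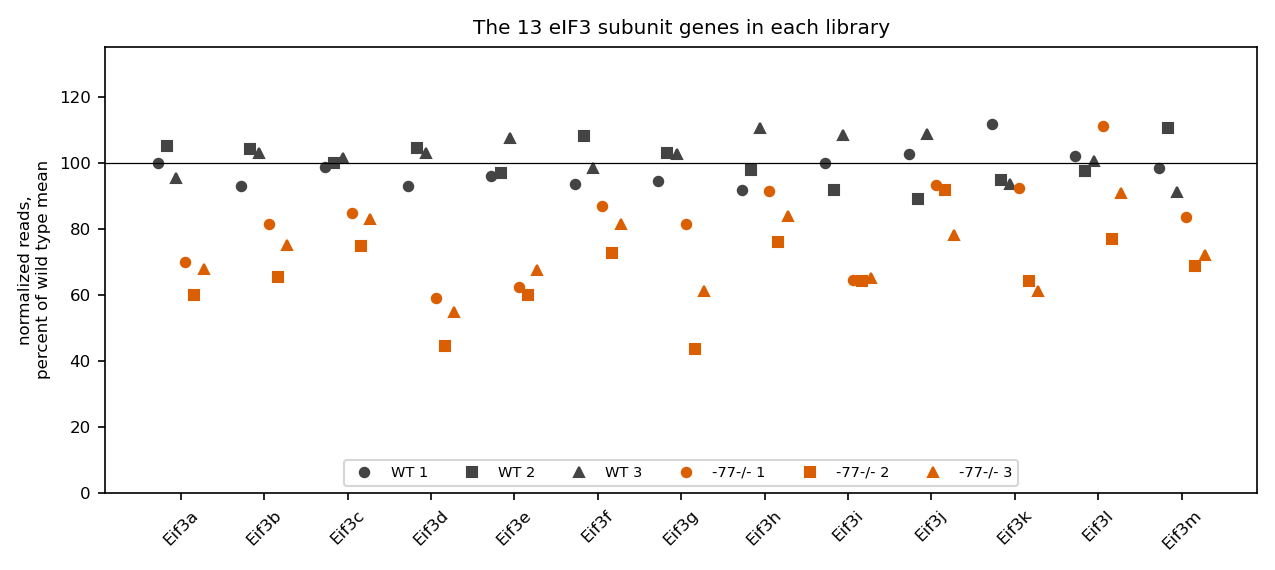
Normalized reads of the 13 eIF3 subunit genes in each library as percent of the wild type mean of the gene; grey symbols are wild type and orange symbols -77-/- replicates. The -77-/- symbols lie below the wild type symbols for 11 of the 13 genes; Eif3j and Eif3l overlap.

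The eIF4F group, with the cap-binding proteins, the RNA helicases and their scaffolds, changed less uniformly: 4 of 13 were lower and 9 did not pass, with a median of -0.25. The lower share, 30.8%, is above the 15.2% of all tested genes. It is near the 34.2% of genes with a mean of at least 1000 normalized reads. Eif4e, the main cap-binding protein, was at 3732, 4068 and 3584 normalized reads in wild type and at 2910.0, 2028 and 2939.5 in -77-/-. The groups did not overlap (log2 -0.55, SE 0.14, limma adjusted p = 0.0072). Eif4b, a helicase cofactor, fell by 0.55, and the scaffold genes Eif4g1 and Eif4g2 fell by 0.49 and 0.36; Eif4g2 encodes DAP5, a scaffold that lacks the eIF4E-binding part. Eif4g3 differed by 0.10 and Eif4e2, which encodes the cap-binding repressor 4EHP, by -0.05, and neither passed. Against Eif4g1 and Eif4e of the same library their log2 ratios were higher in -77-/- by 0.59 and 0.50, without overlap. Eif4g2 relative to Eif4g1 was higher by 0.12, also without overlap.

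The helicase genes did not pass: Eif4a1 at -0.25, Eif4a2 at -0.29 (limma adjusted p = 0.056) and Eif4a3, of the exon junction complex, at -0.27. Eif4a1 passed with wild type replicate 2 left out (limma adjusted p = 0.040) and with median centring (0.013). Eif4a2 passed in 5 of 16 alternatives, with a limma adjusted p down to 0.0073 when wild type replicate 3 was left out. The ratio of Eif4a2 to Eif4a1 differed by -0.04 (exact permutation p = 0.9). A pseudogene left out of the set, Eif4a-ps4, is listed separately, and reads of Eif4a1 could have been shared with it. Eif4h, another helicase cofactor, differed by -0.04 and Eif4e1b, an oocyte-type paralog with 1.14 to 60.6 normalized reads, by 1.2.

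Eif4e3, an atypical cap-binding paralog, is listed under a pair of overlapping Ensembl entries between which reads could have been split. Only ENSMUSG00000093661 now carries the symbol Eif4e3, while the current symbol of ENSMUSG00000030068 is Gm20696. Entry ENSMUSG00000093661 was at 36.6, 0 and 54.7 normalized reads in wild type and at 338, 418 and 357 in -77-/-. Its groups lie far apart, 87 reads in all against 1180, yet the wild type library at 0 spread the values on the log scale. The log2 difference was 4.86 (SE 1.59) with a limma adjusted p of 0.070, so it did not pass; edgeR put the difference at 3.61. It passed in 7 of 16 alternatives, among them edgeR (adjusted p = 0.012), DESeq2 (0.043), a pseudocount of 5 (0.0049) and the fit without wild type replicate 2 (5.1e-05). Entry ENSMUSG00000030068 was at 41.3, 21.0 and 30.8 against 59.0, 134 and 61.5, without overlap, and did not pass (log2 1.37, limma adjusted p = 0.12).

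Among the eIF4E-binding group, Eif4enif1, which encodes the eIF4E transporter 4E-T, was at 4128, 4399 and 4728 normalized reads in wild type and at 2728, 2396 and 2647 in -77-/-. It fell by 0.77 (SE 0.11, limma adjusted p = 6.8e-05), the lowest member of the group. The inhibitors that mTORC1 switches off by phosphorylation did not pass, Eif4ebp1 at -0.37 (393 to 768 over the 6 libraries) and Eif4ebp2 at -0.13 (1557 to 1860). Eif4ebp3 was too low to test, at 0 in 4 libraries and at 5.99 and 10.7 in wild type replicate 2 and -77-/- replicate 2.

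eIF5A helps the ribosome past difficult residues and in termination, and eIF6 keeps the large subunit apart until it is ready. Eif6 was at 1925, 2461 and 2817 normalized reads in wild type and at 1851, 1458 and 1911 in -77-/-. The groups nearly met at 1925 and 1911 (log2 -0.46, SE 0.15, limma adjusted p = 0.034). The call ended without wild type replicates 2 (limma adjusted p = 0.10) or 3 (0.13) and without -77-/- replicates 1 (0.058) or 2 (0.15). Eif5a, at 19979 to 30745 over the 6 libraries, and its low paralog Eif5a2, at 125 to 292, did not pass (-0.24 and -0.69); Eif5a passed with wild type replicate 1 left out (limma adjusted p = 0.020) and with median centring (0.019).

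Each of the 7 genes of the elongation group fell, and in each the groups did not overlap (median -0.48). Lower calls made up 15.2% of all tested genes and 34.2% of those with a mean of at least 1000 normalized reads. The -77-/- group was lower without overlap for 21.4% and 41.3% of these genes. Eef1e1 had the largest fall of all the members. Its product, also known as AIMP3 or p18, is a scaffold protein of the multi-tRNA synthetase complex. It was at 885, 999 and 1068 normalized reads in wild type and at 422, 310.1 and 318 in -77-/-. The mean went from 984 ± 92.5 to 349.9 ± 62.5 (SD, n = 3), a change of -64.4% (log2 -1.50, SE 0.19, limma adjusted p = 2.8e-05). Eef1d, Eef1b2 and Eef1g, the delta, beta and gamma subunits of the exchange complex that reloads eEF1A, fell by 0.60, 0.48 and 0.37. Eef2k, the kinase that inactivates eEF2, fell by 0.51, in the same direction as its substrate.

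The 2 most abundant members changed least among those called. Eef1a1, the carrier of aminoacyl-tRNA, was at 146733, 153693 and 157036 normalized reads in wild type and at 132601, 124468 and 125083 in -77-/-. The mean changed by -16.5% (log2 -0.26, SE 0.07, limma adjusted p = 0.010) without overlap. Eef2, the translocase, was at 52584, 59359 and 60267 against 50544, 44187 and 48614 (log2 -0.26, limma adjusted p = 0.026), where -77-/- replicate 1 came close to wild type replicate 1. Per kilobase of exon, wild type reads ranked Eef1a1 (84998), Eef2 (18583), Eif5a (11635), Eif4a1 (11511), Eef1g (11332) and Eif1 (8764) highest among the members.

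Calls in the elongation group with small differences were sensitive to single libraries. Eef2 lost its call without wild type replicates 2 (limma adjusted p = 0.12) or 3 (0.087), without -77-/- replicates 2 (0.055) or 3 (0.068) and without the robust step (0.089). Eef1a1 lost it with wild type replicate 2 (limma adjusted p = 0.058) or -77-/- replicate 3 (0.058) left out and without the robust step (0.12). Eef1g lost it without wild type replicates 2 (limma adjusted p = 0.096) or 3 (0.052) or -77-/- replicate 2 (0.053), and Eef2k without wild type replicates 1 (0.059) or 2 (0.055) or -77-/- replicates 2 (0.067) or 3 (0.075). Eef1e1, Eef1d and Eef1b2 kept theirs in all 16 alternatives.

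The Eif2c genes encode the Argonautes (Ago1 to Ago4), which bind microRNAs and belong to the set by their older symbols only. Of 6 rows, 2 were lower, 1 was higher and 3 did not pass, with a median of -0.10. These are 33.3% lower against 15.2% of all tested genes, and 16.7% higher, near the 16.9% of all tested genes. Eif2c2 (Ago2), the Argonaute that can cleave its target, was at 8454, 8259 and 7737 normalized reads in wild type and at 5109, 4622 and 5787 in -77-/- under entry ENSMUSG00000036698. All -77-/- libraries were lower (log2 -0.66, SE 0.11, limma adjusted p = 1.9e-04). Its other entry, ENSMUSG00000093631, for which no current symbol was found, was at 281, 285 and 425 against 89.5, 149.7 and 164. That entry fell by 1.31 (SE 0.33, limma adjusted p = 0.0064), and how reads were divided between the entries is uncertain. Eif2c4 (Ago4) was at 55.4, 0.998 and 21.7 against 95.6, 197 and 94.8. It was higher (log2 3.16, SE 1.06, limma adjusted p = 0.036), from few reads and with a wild type library near 0, and edgeR put the difference at 2.30. That call ended with edgeR (adjusted p = 0.11), without wild type replicate 3 (0.080) and without -77-/- replicates 1 (0.075), 2 (0.13) or 3 (0.074). Eif2c1 and Eif2c3 did not pass, at -0.28 and 0.09, nor did Eif2c5, annotated as a noncoding RNA, with 0 to 24.4 normalized reads. Relative to Eif2c2, the log2 ratios of Eif2c3 and Eif2c4 were higher in -77-/- by 0.75 and 3.82 without overlap. That of Eif2c1 was higher by 0.38 with overlap. The size of the Eif2c4 difference depends on the pseudocount, as a wild type library was near 0.

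Promoters of the members were searched in windows from 250 bases before to 50 after each RefSeq start, on both strands. Of 64 symbols, 50 matched a gene with a window, and the same windows of 27025 genes of all kinds served for comparison, without matching on base composition. None of the 5 motifs contains another. CACGTG, the E-box bound by Myc, Max and USF proteins, was in 12 of the 50 (24%) against 8.09% of all genes, and in 8 of the 28 matched genes that fell. CCGGAAG, the core of ETS factor sites, was in 18 (36%) against 9.93%. The GAAA repeat of the interferon response type was in 3 (6%) against 3.99%, namely Eif2s1 and Eif3a, which fell, and Eif2ak2, which rose. CCAAT was in 17 (34%) against 41.1%. AGATAA, the core bound by GATA factors, was in 1 of 50 (2%), Eif3c, against 12.7%. These shares are descriptions without a test.

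The windows below are given for 5 of the genes with CACGTG, from an eIF3 pair, a scaffold, the translocase and Eif1b, because all of them fell in -77-/-. CACGTG is also in the promoters of Eif3a, Eif4e and Eef2k, which fell too and are not shown. Those of Eif4a1, Eif4h, Eif5a and Eif5a2, which did not pass, hold it as well and are not shown. The calls of Eif3f, Eif3k and Eef2 ended in some alternatives, as given above. Each window shown covers the 100 bases before the start on GRCm38.p6 from RefSeq, 5′ to 3′ on the strand of the gene, with CACGTG in capitals. Eif3f is at chr7:108934315-108934414 (plus strand), Eif3k at chr7:28981889-28981988 (minus), Eif4g1 at chr16:20672627-20672726 (plus), Eef2 at chr10:81176531-81176630 (plus) and Eif1b at chr9:120492506-120492605 (plus).
Eif3f: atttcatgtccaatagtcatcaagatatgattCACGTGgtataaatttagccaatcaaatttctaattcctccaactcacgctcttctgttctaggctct
Eif3k: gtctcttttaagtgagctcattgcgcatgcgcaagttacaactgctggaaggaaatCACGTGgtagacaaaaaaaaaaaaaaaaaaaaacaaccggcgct
Eif4g1: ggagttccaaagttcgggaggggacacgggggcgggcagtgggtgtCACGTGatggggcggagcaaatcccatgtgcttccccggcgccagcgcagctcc
Eef2: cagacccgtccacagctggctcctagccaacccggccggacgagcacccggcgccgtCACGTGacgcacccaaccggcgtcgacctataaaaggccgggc
Eif1b: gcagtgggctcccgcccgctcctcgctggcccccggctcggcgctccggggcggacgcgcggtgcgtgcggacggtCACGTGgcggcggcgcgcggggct

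Genes that work with these factors were followed in 7 further lists, in which 34 of 105 tested genes were lower and 10 higher, or 32.4% and 9.52% against 15.2% and 16.9% of all tested genes. With median centring the split was 44 lower and 4 higher. Of 11 mitochondrial translation factors 8 were lower (72.7%) and none higher (median -0.68). The elongation factor gene Tufm fell by 1.02 and the recycling factor gene Mrrf by 0.98, and the call of Tufm ended without -77-/- replicate 2 (limma adjusted p = 0.075). Among 9 release and recycling factors 4 were lower (44.4%) and 1 higher (11.1%, below the 16.9% of all tested genes), with a median of -0.50. Abce1, the ATPase that splits ribosomes, fell by 0.79 and Hbs1l, a ribosome rescue factor, by 0.68. Gspt2, a paralog of the release factor gene Gspt1, was the exception, at 28.1, 36.9 and 17.1 normalized reads against 143, 261 and 327 (log2 3.09, limma adjusted p = 3.4e-04), while Gspt1 fell by 0.50. Of 9 poly(A)-binding proteins and partners 4 were lower (44.4%, median -0.20): Larp1b fell by 1.78 and Pabpc4 by 1.22. Pabpc1, the main cytoplasmic poly(A)-binding protein, did not pass (0.09).

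Enzymes that place the hypusine residue on eIF5A did not pass, Dhps at -0.20 and Dohh at -0.06. In their list of 6, which also holds selenocysteine factors, Pstk and Sepsecs fell by 1.02 and 0.70 (median -0.30), and none rose. The lower share was 33.3%, against 15.2% of all tested genes. Pstk lost its call when each library except wild type replicate 2 was left out in turn (limma adjusted p = 0.060 to 0.12), and Sepsecs without wild type replicate 3 (0.051) or -77-/- replicate 2 (0.070). Of 9 microRNA pathway partners of the Argonautes 4 were lower (44.4%) and none higher (median -0.35). Drosha was at -0.81 and Xpo5 at -0.55, while Dicer1 differed by 0.09 and did not pass.

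Among 33 signalling genes of the mTORC1 and S6 kinase pathway 3 were lower and 4 higher (median -0.02). These are 9.09% and 12.1%, both below the shares of all tested genes, and with median centring 5 were lower and 2 higher, as the calls of Rps6ka3 (limma adjusted p = 0.10) and Depdc5 (0.084) ended. Sesn2, an mTORC1 inhibitor that senses leucine, fell by 1.70 and its paralog Sesn3 rose by 2.37. Rps6ka1, a kinase gene of the RSK family, rose by 2.44. Rps6kb1 and Rps6kb2, the S6 kinase genes downstream of mTORC1, did not pass, at -0.38 (limma adjusted p = 0.0503) and -0.42. Rps6kb1 passed as lower in 7 of 16 alternatives. Mlst8, an mTOR partner, fell by 0.71, and this call ended in 10 of 16 alternatives (limma adjusted p up to 0.12 without wild type replicate 1). Mtor itself did not pass (0.21).

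The 28 tested regulators and targets of the integrated stress response, the pathway that phosphorylated eIF2 starts, had a median of -0.08. Of these 9 were lower (32.1%) and 5 higher (17.9%, near the 16.9% of all tested genes). The lower share was above the 15.2% of all tested genes and near the 34.2% of genes with a mean of at least 1000 normalized reads. Asns, asparagine synthetase, was at 6389, 6052 and 7867 normalized reads in wild type and at 1335, 666 and 990.4 in -77-/- (log2 -2.81, limma adjusted p = 4.7e-05). Aldh18a1, of proline synthesis, fell by 1.44. Atf3, a stress-induced transcription factor, was at 312, 286 and 123 against 2173, 2033 and 1948 (log2 3.20, limma adjusted p = 2.8e-05), and Slc7a11, a cystine transporter, rose by 0.90. Slc7a11 did not pass with wild type replicate 1 (limma adjusted p = 0.055) or -77-/- replicate 2 (0.087) left out, or with median centring (0.054). Median centring also ended the calls of the higher genes Phgdh (limma adjusted p = 0.091), Impact (0.083) and Herpud1 (0.22), which left 12 lower and only Atf3 higher. The mRNAs of the central factor Atf4 (-0.24, limma adjusted p = 0.12), of Ddit3 (0.57) and of the eIF2 phosphatase subunit Ppp1r15a (-0.24) did not pass. The libraries measure mRNA levels and hold no measure of eIF2 phosphorylation or of translation.

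**Figure D5:**
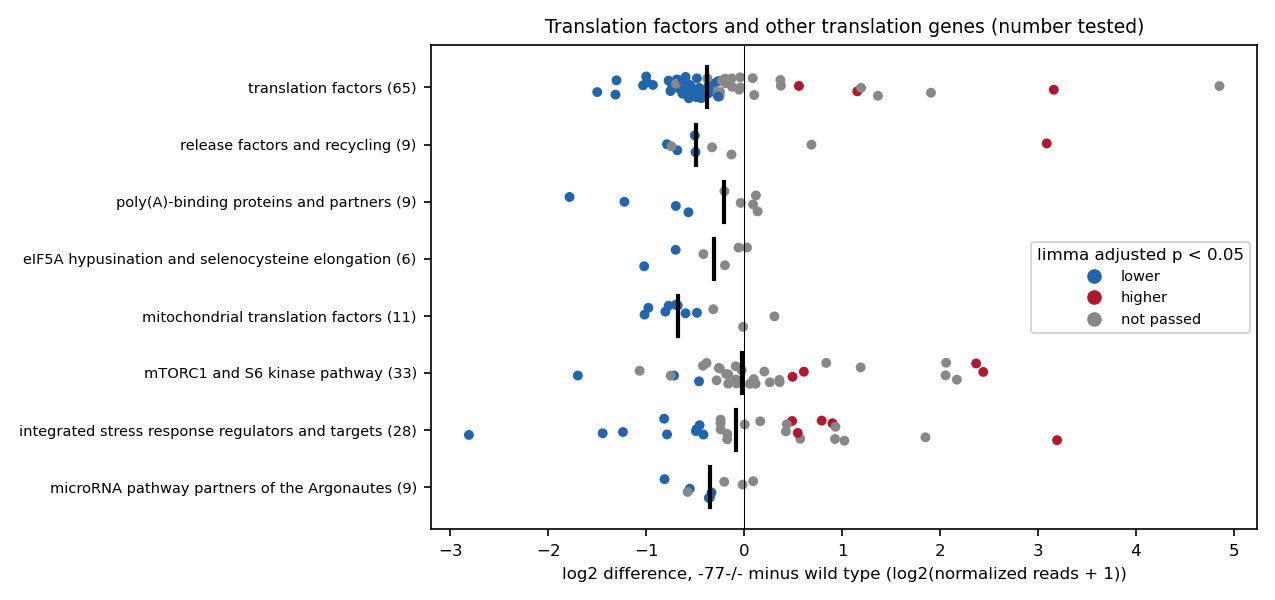
Log2 difference, -77-/- minus wild type, of each tested gene in the translation factor set and in 7 further lists (number tested in brackets); points are genes, colour gives the limma call and black lines are list medians. The median lies at -0.37 for the translation factors, at -0.68 for the mitochondrial factors and at -0.02 for the mTORC1 list, whose calls lie on both sides of 0.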

How the data were processed

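RNA-seq of 3 wild type and 3 -77-/- samples was analysed from a table of 19436 genes, after 8 rows with shifted columns were left out. The values deposited by the authors are a normalized signal per gene, read counts divided by size factors. The authors also deposited log2 fold changes, and adjusted p-values as another unit, in columns named as in DESeq2 output per the file headers. The submitters' processing notes name STAR 2.5, RSEM 1.2.31, Bowtie, DESeq2 and mm9; their roles are not given in the sources used here. Whole reads were recovered from the value steps (tolerance 0.01) for the count tools.

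Genes with a mean of at least 10 in the higher genotype were tested on log2(value + 1) with limma 3.58.1 (trend, robust), -77-/- against wild type, with Benjamini-Hochberg adjustment over all tested genes. Fold changes are on the log2(value + 1) scale, on which those of genes with values near 0 depend on the pseudocount and can be smaller or larger than the ratio of means. Alternatives used edgeR 4.0.16, DESeq2 1.42.0, voom, other scalings, filters, pseudocounts and each library left out. Scripts were tested on simulated data. Symbols were matched by Ensembl ID, with 65 of 66 found; 177 of 179 list entries matched, of which 172 were kept after repeats of a gene under another name and a member were removed.

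Members and lists were chosen with earlier results of these data known. Members past the threshold with a log2 difference of at least 1, and the extremes of each role, are named with all values, and the 2 largest differences per direction in the other lists. Other genes named were chosen to describe a family.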

Additional observations from a re-analysis of the deposited data

How the results depend on the processing

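Of 41 called members 27 kept their call and direction in all 16 alternatives, 14 lost the call in some and 0 reversed; 10 that did not pass did so in some. The count of lower members was 35 with edgeR, 38 with DESeq2, 39 with voom, 47 with median centring and 28 to 36 without single libraries. The 3 higher calls became 1 to 4 when single libraries were left out (1 without wild type replicate 3, -77-/- replicate 1 or -77-/- replicate 2). Higher calls in the other lists were 10, but 4 with median centring and 7 to 11 without single libraries, and lower calls 34, but 44 with median centring and 24 to 28 without single libraries. The summed share differed by -0.519 percentage points, and by -0.582 to -0.459 without single libraries. Of the paralog ratios, 9 did not overlap, and 9 to 11 without single libraries. Most calls were lost without -77-/- replicate 2 (12) or wild type replicate 2 (11). Lower calls over all tested genes also dropped then, to 1912 and 1958 from 2410. The cause was not tested. No paired analysis was possible because the sample labels carry no replicate numbers shared between the genotypes. Depth limits the low members, where a wild type library held 0 to a few reads (Eif4e3, Eif2c4); counting error covers only part of the spread in amplified libraries.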
